A study of Mus musculus with 6 samples.

Results

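The Ifi200 family with Aim2 was followed on 6 microarrays of sorted mouse bone marrow cells. Its members were every probe set whose annotation named Ifi202b, Ifi203, Ifi204, Ifi205, Ifi207, Ifi209, Ifi213, Aim2 or Mndal, with older symbols brought to current ones. The 9 genes, of 32931 named on the array, were covered by 8 of 65956 probe sets. For Aim2, Ifi204, Ifi207, Ifi209, Ifi213 and Mndal the 6 probe sets named no other gene. The other 2 were shared: 1 named Ifi202b together with Ifi205 and LOC100044068, and 1 named Ifi203 together with LOC100862473 and the pseudogene Ifi203-ps. The annotation also held 5 further genes of the family with probe sets of their own, Ifi206, Ifi208, Ifi211, Ifi214 and Ifi203-ps, which are described beside the members.

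The arrays held RNA from LSK cells, the lineage-negative, Sca1+, cKit+ fraction of bone marrow that contains hematopoietic stem cells and multipotent progenitors. The KO group was Ash2l exon4 fl/fl with MxCre (n = 3 arrays) and the control group was Ash2l exon4 fl/fl without Cre (n = 3 arrays). Ash2l is a core subunit of the complexes that methylate lysine 4 of histone H3. Mice of both groups received the inducer by intraperitoneal injection on days 1, 3 and 5 and bone marrow was taken on day 10. The inducer is written as poly(dIdC) in the labels and as pIC in the study's methods. The Mx1 promoter that drives Cre is itself switched on by interferon, and pIC, a mimic of viral double-stranded RNA, acts by inducing interferon, so that the controls were exposed to the inducer as well. Carrying Cre and losing Ash2l cannot be told apart in these groups. The titles call the arrays biological replicates and the design text counts 3 mice in each group, so that each array was taken as 1 mouse, which the sources used here do not spell out array by array.

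Proteins of the family share a HIN-200 domain, which binds DNA, and most also carry a pyrin domain, through which they meet other proteins. AIM2 is the best known member. It binds double-stranded DNA in the cytosol and assembles an inflammasome with the adaptor ASC (encoded by Pycard), which activates caspase-1 and leads to release of interleukins and to pyroptotic death. IFI204 has been described as a sensor of DNA upstream of STING and as a partner of the retinoblastoma protein, and IFI202B, which lacks the pyrin domain, as an inhibitor of AIM2. Many of the genes were found as genes induced by interferon, and they lie side by side as a cluster of recent duplicates. On the mouse assembly GRCm38.p6 the cluster spanned chr1:173349547-174031755 (682 kb), with Aim2 at the low-coordinate end and Ifi205 at the other.

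Some family members are close copies of each other upstream, and the stretch around an interferon response element divides the family into subgroups. Between subgroups this stretch was less alike, from 51 of 70 identical positions for Ifi206 and Ifi209 down to 31 for Ifi206 and Ifi207. Coding parts were not compared. The stretch around the element was used for this grouping, and it sets Ifi209 and Ifi214 apart less clearly than the other subgroups. It is shown because the 3 genes with the largest differences fall in 1 of these subgroups, and Ifi209 and Ifi214, which had a pattern of their own over the arrays, in another. RefSeq promoter sequences on GRCm38.p6 (250 bases before to 50 after a transcription start) were at hand for 12 of the 14 family genes, and not used here for Ifi204 and Ifi203-ps. The motif GAAANNGAAA, the core of the element bound by the interferon-activated factor ISGF3 and by IRF proteins, was searched on both strands. It was found in 9 of these 12 genes, and in 1079 of 27025 genes with such a promoter (3.99%). Mndal and Ifi203 had more than 1 listed start, and for Ifi203 the window of only 1 of them held the motif. The windows below run 5′ to 3′ along each gene, with 40 bases before and 20 bases after the motif, and the capitals mark the 10 bases of the motif. In Ifi209 the capitals mark the 10 bases at the place aligned with the motif of Ifi214, and are not a match.
Ifi213 (chr1:173599316-173599385, minus strand): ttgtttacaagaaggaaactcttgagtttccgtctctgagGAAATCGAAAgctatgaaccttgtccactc
Ifi208 (chr1:173673567-173673636, plus strand): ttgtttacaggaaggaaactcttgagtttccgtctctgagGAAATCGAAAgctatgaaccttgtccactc
Ifi206 (chr1:173491329-173491398, minus strand): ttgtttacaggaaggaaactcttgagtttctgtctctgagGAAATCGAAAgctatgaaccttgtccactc
Ifi214 (chr1:173536007-173536076, minus strand): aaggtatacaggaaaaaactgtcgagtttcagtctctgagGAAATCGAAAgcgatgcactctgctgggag
Ifi209 (chr1:173630740-173630809, plus strand): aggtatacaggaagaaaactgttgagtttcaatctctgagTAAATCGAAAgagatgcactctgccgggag
Mndal (chr1:173880194-173880263, minus strand): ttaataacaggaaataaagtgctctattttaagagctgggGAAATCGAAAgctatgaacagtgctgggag
Ifi203 (chr1:173942498-173942567, minus strand): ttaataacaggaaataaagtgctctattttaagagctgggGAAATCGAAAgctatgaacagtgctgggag
Ifi207 (chr1:173741821-173741890, minus strand): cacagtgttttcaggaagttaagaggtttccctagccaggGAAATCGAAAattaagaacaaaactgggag
Ifi205 (chr1:174031860-174031929, minus strand): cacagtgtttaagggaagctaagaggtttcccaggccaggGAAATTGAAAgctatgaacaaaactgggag

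Ifi206, Ifi208 and Ifi213 were nearly the same over these 70 bases, with 68 to 69 identical positions in each pair. Mndal and Ifi203 were identical at all 70. Over the whole promoter Ifi209 and Ifi214 aligned over 300 bases with 95.7% identity, yet at position 41 of the window, counted from its 5′ end, the comparison of Ifi214 with Ifi209 was G41T, so that Ifi209 held TAAATCGAAA and not the motif. Within the window, compared without gaps, Ifi209 and Ifi214 were alike at only 55 of 70 positions, and Ifi209 and Ifi206 at 51. Most differences between Ifi209 and Ifi214 lay at positions 2 to 14. Ifi207, Ifi211 and Ifi205 formed a further subgroup, at 60 to 62 of 70 identical positions in each pair. The exact form GAAATCGAAA was in 16 of 32851 promoters (0.0487%) and the form GAAATTGAAA, held by Ifi211 and Ifi205, in 38 (0.116%). No match was found in the windows of Aim2 and Ifi202b, which says only that these letters were not in the 300 bases around the listed starts. The motif was also found in 21 of 46 interferon-stimulated genes with a promoter (45.7%). A match is a description of the sequence and was not tested for binding.

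Signals were log2 values, and the median of all probe sets was 6.02 to 6.09 on the 6 arrays. The Ash2l signal was 9.65, 9.63 and 9.65 on the KO arrays and 10.76, 10.57 and 10.23 on the control arrays, a difference of -0.88 (SE 0.15). This signal was summarised over the gene, while the knockout removes a single exon. For RNA with that exon the paper reports a much larger fall in KO, on the arrays and by RT-qPCR. The Ash2l signal therefore does not measure how complete the loss was on any array, control 3 included. Control replicate 3 stood apart from the other controls. It correlated with them at 0.984 and 0.980 over all probe sets, against 0.989 between controls 1 and 2 and 0.989 with KO replicate 2, and its Ash2l signal lay 42.6% of the way from controls 1 and 2 to the KO mean. Of Fos and Jun, early-response transcription factors, Fos was at 9.96 in control 3 and at 5.19 to 5.73 on the other arrays, and Jun at 10.94 against 5.85 to 8.39. Because of this array, the differences of family genes and the medians of gene lists are given with and without it, and those of other genes where leaving it out moved them by over 1.5 times. With all arrays, limma called 0 of 65956 probe sets at an adjusted p under 0.05 (0%; smallest adjusted p 0.0528), with 3355 higher and 3827 lower at an unadjusted p under 0.05, and the methods' t-test, which the study names for data other than its arrays, called 0 as well. Without control 3, limma called 1418 higher and 914 lower.

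Over the 8 member probe sets the median difference between KO and control was 0.74 on the log2 scale (0.73 without control 3), while the median of all probe sets was -0.027. The difference was positive for 7 of the 8 and negative for 1. Every KO array was above every control array for 5 of 8, beside 6.15% of all probe sets, and every KO array was below every control array for 1, beside 9.15%. Over 2-fold with an unadjusted p under 0.01 from limma, 2 of 8 were higher, Ifi213 and Ifi204, beside 0.594% of all probe sets, and 0 were lower, beside 0.393%. The members were chosen by their signals in this same KO against control contrast, so that these counts describe the choice and no p is given for any member. Over the 6 probe sets that name 1 gene the median was 0.90, and all 6 differences were positive.

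**Figure D1:**
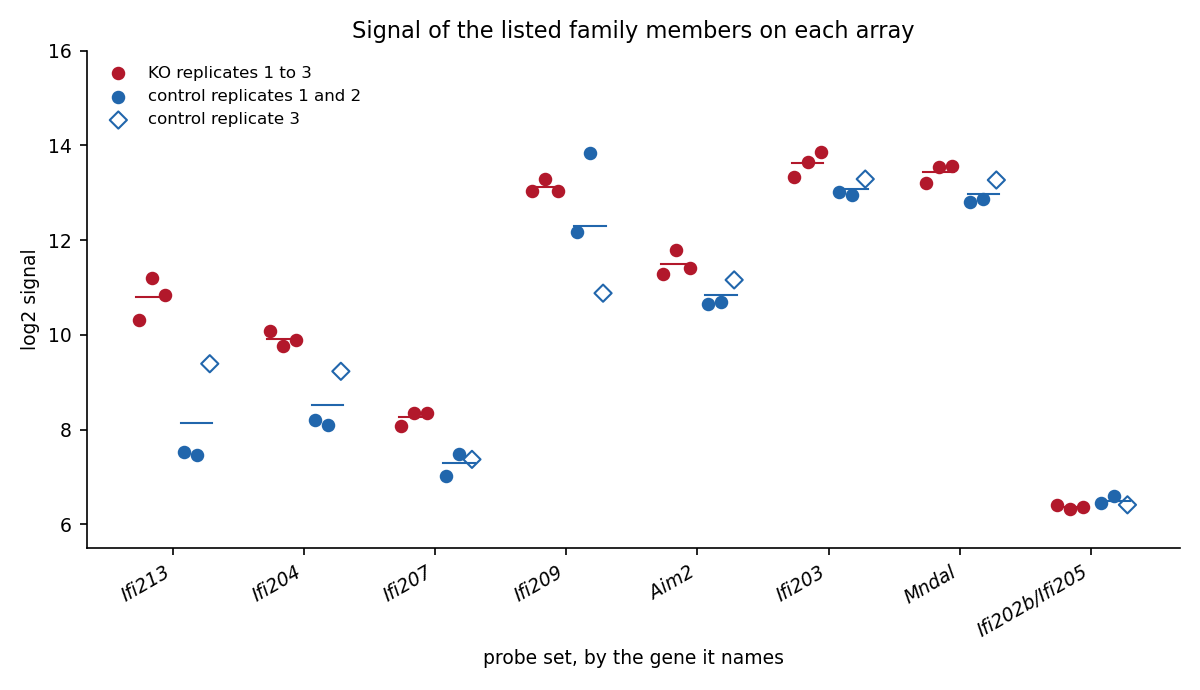
Log2 signal of the 8 member probe sets on each of the 6 arrays, ordered by the difference between KO and control. Filled red points are the KO arrays, filled blue points controls 1 and 2, the open diamond control 3, and the short lines the group means. Ifi213 and Ifi204 have the largest differences between the group means, control 3 lies between the other controls and KO for Ifi213, Ifi204, Aim2 and Ifi203, and Ifi209 has the widest spread among controls.

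Ifi213, which encodes a protein with a pyrin domain, had the largest difference of the listed genes. Its signal was 10.32, 11.21 and 10.85 on the KO arrays and 7.53, 7.47 and 9.39 on the control arrays. All KO arrays were above all controls, and control 3 lay 57.4% of the way from controls 1 and 2 to the KO mean. The difference was 2.66 (SE 0.53, n = 3 against 3), which is 6.33-fold, and 3.29 without control 3.

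Ifi204, the gene of the DNA-binding protein p204, had signals of 10.09, 9.77 and 9.90 in KO and 8.21, 8.09 and 9.23 in control. The KO arrays lay within 0.32 of each other while control 3 was more than 1 above the other controls. The difference was 1.41 (SE 0.30), or 2.66-fold, and 1.77 without control 3. The position of control 3 was 61.0%.

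For Ifi207, which encodes a pyrin-domain protein, control 3 lay within the range of the other controls. Its signals were 8.07, 8.35 and 8.35 in KO and 7.01, 7.48 and 7.37 in control, which did not overlap. The difference was 0.97 (SE 0.16) and changed little, to 1.01, without control 3, whose position was 12.4%.

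Aim2 had signals of 11.28, 11.80 and 11.41 in KO and 10.66, 10.69 and 11.16 in control. The groups did not overlap, but the lowest KO array and control 3 were only 0.12 apart. The difference was 0.66 (SE 0.20), a 1.58-fold change in signal, and 0.82 without control 3, which lay at 59.0%.

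Mndal, named after the human myeloid nuclear differentiation antigen, and Ifi203 share the upstream window shown above. Their signals correlated at 0.96 over the 6 arrays. Mndal correlated at 0.96 with Ifi213 as well, whose window matched that of Mndal at 42 of 70 positions. Mndal was at 13.21, 13.55 and 13.57 in KO and at 12.81, 12.87 and 13.27 in control, so that control 3 was above KO replicate 1 and the groups overlapped. The difference was 0.46 (SE 0.17), or 0.60 without control 3. The probe set of Ifi203, shared with its pseudogene, was at 13.34, 13.65 and 13.86 in KO and at 13.02, 12.95 and 13.29 in control. Here control 3 came within 0.05 of the lowest KO array without crossing it. The difference was 0.53 (SE 0.17), or 0.63 without control 3.

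Ifi209 had the least certain value of the listed genes, since its controls disagreed more than the groups did. Its signals were 13.03, 13.29 and 13.04 in KO and 12.18, 13.84 and 10.88 in control. Control 2 was the highest of the 6 arrays and control 3 the lowest, so that the KO arrays lay inside the range of the controls. The control SD was 1.48 against 0.15 in KO. The mean difference of 0.82 had an SE of 0.67 and was 0.11 without control 3.

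The shared probe set of Ifi202b and Ifi205 was the only one with a lower mean in KO. Its signals were 6.40, 6.32 and 6.36 in KO and 6.45, 6.60 and 6.41 in control, close to the array medians of 6.02 to 6.09. The groups were separated by 0.01, and the difference of -0.13 (SE 0.11) was -0.17 without control 3. Which of the named genes gave this signal cannot be told apart.

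The 5 other family genes were not in the rule, but they are measured on the same arrays and compared by the same contrast. All 5 had positive differences (median 0.95), and for 4 every KO array was above every control, beside 6.15% of all probe sets. Ifi208 was at 10.33, 11.13 and 10.44 in KO and at 7.88, 7.65 and 9.17 in control, a difference of 2.40 (SE 0.42), or 2.87 without control 3. Ifi206 was at 11.62, 12.63 and 12.05 in KO and at 9.63, 9.14 and 11.00 in control, a difference of 2.18 (SE 0.49), or 2.71 without control 3. With Ifi213 these are the 3 genes of the near-identical upstream windows, and they had the 3 largest differences among the 13 family probe sets. Ifi211 was at 9.25, 9.15 and 9.39 in KO and at 8.43, 8.60 and 9.11 in control, a difference of 0.55 (SE 0.19), or 0.75 without control 3. Ifi203-ps, a pseudogene, was at 13.52, 13.61 and 13.93 in KO and at 12.74, 12.72 and 13.25 in control, a difference of 0.78 (SE 0.19), or 0.96 without control 3. How far probes of 1 copy bind transcripts of another was not tested for any pair of the family.

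Ifi214, the gene most like Ifi209 upstream, shared its pattern. It was at 11.10, 11.68 and 11.54 in KO and at 10.39, 11.77 and 9.32 in control. As for Ifi209, control 2 was the highest array and control 3 the lowest, and the difference of 0.95 (SE 0.57) was 0.36 without control 3. Over the 6 arrays the 2 probe sets correlated at 0.98. An order with control 2 highest and control 3 lowest was seen in 2084 of 65956 probe sets (3.16%) and in 0 of the other 11 family probe sets. This pair was picked out after its values were seen.

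**Figure D2:**
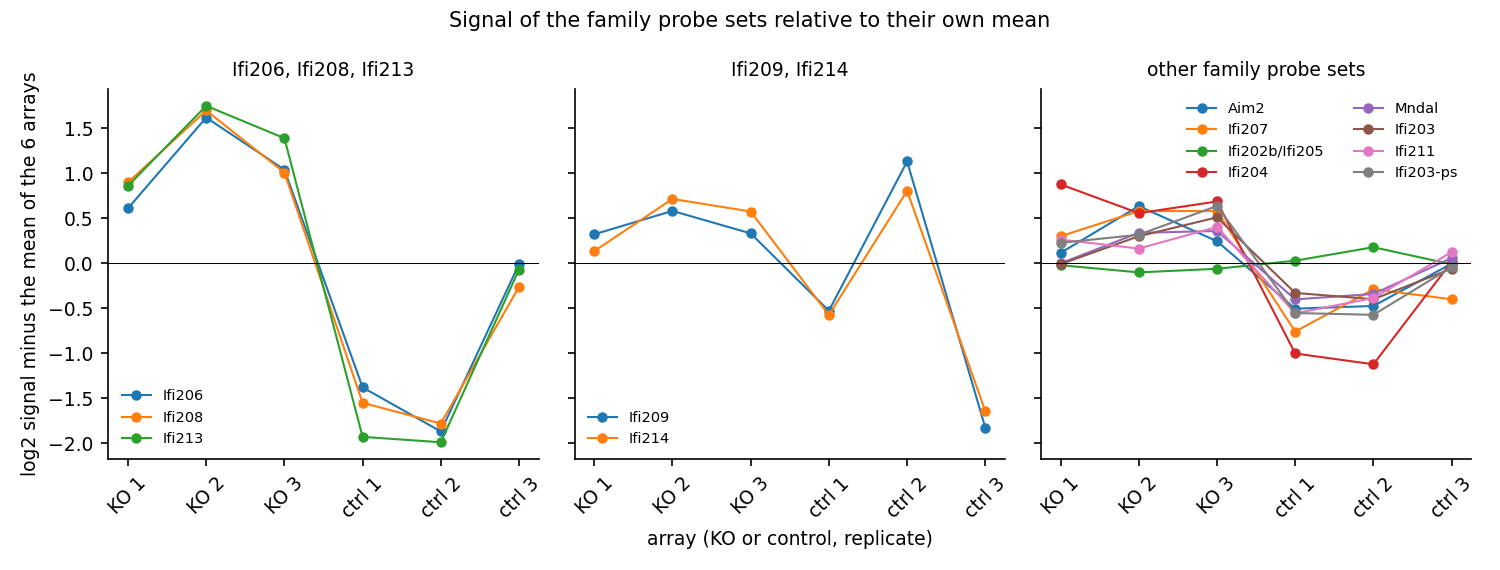
Log2 signal of the 13 family probe sets on each array, after subtraction of each probe set's mean over the 6 arrays. The panels group them by likeness, with Ifi206, Ifi208 and Ifi213 on the left, Ifi209 and Ifi214 in the middle and the other 8 on the right. The lines only link values of a probe set. In the left panel control 3 is the highest control, and in the middle panel it is the lowest array.

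Within the remaining 10 probe sets, leaving out Ifi209, Ifi214 and the shared probe set of Ifi202b and Ifi205, Pearson correlations over the 6 arrays ran from 0.83 to 0.99 (45 pairs, median 0.92). With these 10, Ifi209 correlated at -0.03 to 0.49 and Ifi214 at 0.10 to 0.61. The shared probe set correlated negatively, at -0.92 to -0.62, but its signals spanned only 6.32 to 6.60. The points of each correlation are the same 6 arrays, and a difference between the groups enters all of them. Control 3 was above both other controls for 9 of the 11 probe sets other than Ifi209 and Ifi214 (39.8% of all probe sets), and for 8 of the 11 it was also below every KO array (3.50% of all).

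The cluster has neighbours on both sides, and their differences are given beside those of the family. On the Aim2 side, Ackr1, the atypical chemokine receptor of the Duffy blood group, had a difference of 0.59 (SE 0.26) with overlapping groups, Mptx2, a pentraxin gene, -0.04 (SE 0.12) and Olfr418, an olfactory receptor gene, 0.13 (SE 0.11). On the Ifi205 side the olfactory receptor genes Olfr433, Olfr432 and Olfr430 had differences of 0.62 (SE 0.15), -0.05 (SE 0.18) and -0.20 (SE 0.17). Without control 3 the differences of Mptx2, Olfr432 and Olfr430 were -0.10, -0.14 and -0.02. Group means of Olfr418, Mptx2, Olfr432 and Olfr430 lay between 4.2 and 5.31, below the array medians of 6.02 to 6.09. At so low a signal a difference may not show, so these genes cannot mark where the differences end. All KO arrays were above all controls only for Olfr433 of these 6, beside 6.15% of all probe sets, and its adjusted p from limma was 0.267. Within the cluster the size of the difference did not follow the order of the genes: Ifi214 and Ifi209 lay among Ifi206, Ifi213 and Ifi208.

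**Figure D3:**
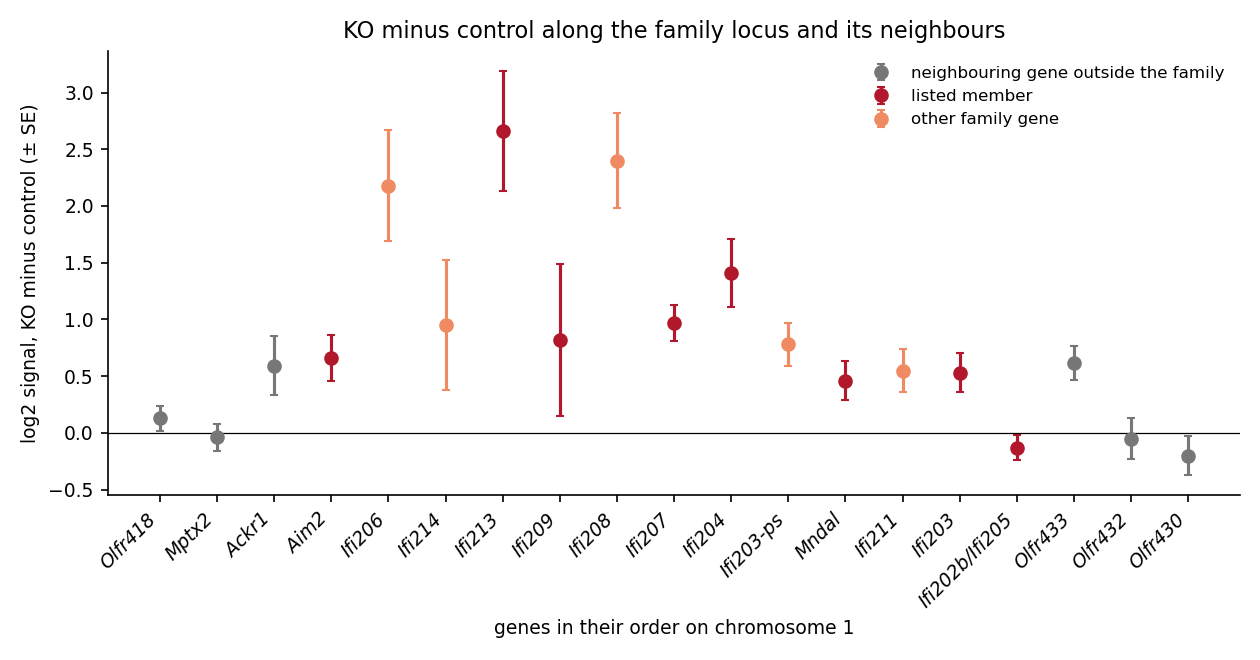
Difference in log2 signal between KO and control for the family probe sets and the 3 nearest measured genes on each side, in their order on chromosome 1. Points are limma estimates and bars their SE, in red for listed members, orange for other family genes and grey for neighbours. The 3 tall points are Ifi206 (2.18), Ifi213 (2.66) and Ifi208 (2.40), and the long bars belong to Ifi214 and Ifi209.

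Other genes induced by interferon were compared because family members are themselves of this kind. Of 57 listed interferon-stimulated genes 55 were measured, and 51 had positive differences, with a median of 0.85 and of 1.29 without control 3. For 16 of 55 every KO array was above every control (6.15% of all probe sets) and for 0 every KO array was below (9.15% of all probe sets). Oas2, an antiviral oligoadenylate synthetase, was at 10.97, 10.97 and 11.11 in KO and at 7.52, 7.13 and 10.33 in control, a difference of 2.69 (SE 0.78; adjusted p = 0.320 from limma). The differences were 2.22 (SE 0.64) for Ms4a4c, a membrane protein gene, 2.00 (SE 0.52) for Ifi27l2a and 1.99 (SE 0.67) for Rtp4, both interferon-induced. None of the 55 passed an adjusted p under 0.05 with all arrays (smallest 0.266 from limma), and the methods' t-test likewise left 0 after adjustment. At an unadjusted p under 0.05 from limma 26 were higher and 0 lower, beside 3355 and 3827 of all 65956 probe sets. Without control 3, limma called 41 of the 55 at an adjusted p under 0.05, beside 2332 of all 65956 probe sets.

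The median position of control 3 between the other controls and KO was 96.3% over the 48 interferon-stimulated genes that differed by at least 0.5 between KO and controls 1 and 2, and 58.2% over the 6 member probe sets that did. No test was made of this difference. Usp18, the protease that removes ISG15 and damps the receptor, was at 9.72, 10.22 and 9.90 in KO and at 7.75, 7.40 and 9.78 in control, with control 3 inside the range of the KO arrays. For Ms4a4c control 3, at 8.90, lay between control 1 (7.63) and control 2 (10.23).

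**Figure D4:**
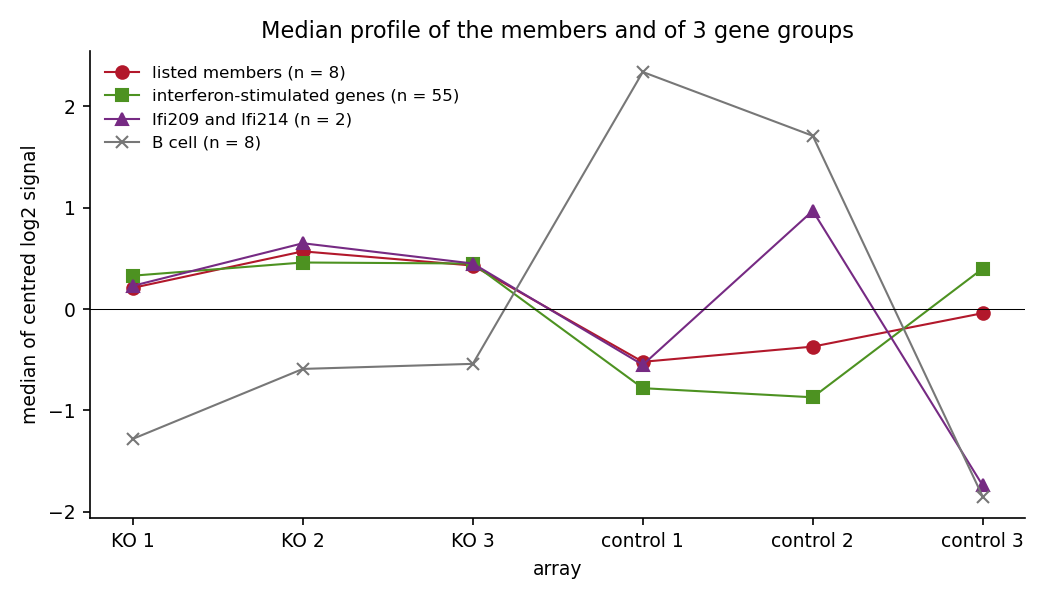
Median over each gene group of the log2 signal after subtraction of each probe set's mean over the 6 arrays, for the 8 member probe sets, 55 interferon-stimulated genes, Ifi209 with Ifi214, and 8 B cell markers. At control 3 the interferon-stimulated genes are at 0.40, next to the KO arrays (0.33 to 0.46), the members at -0.04, and Ifi209 with Ifi214 at -1.74.

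The receptors and factors that lead to the response element differed in both directions. Of 12 measured genes of the receptor and JAK-STAT list, 6 had positive differences (median 0.08, or 0.24 without control 3). At an unadjusted p under 0.05 from limma 4 were higher and 1 lower, beside 3355 and 3827 of all 65956 probe sets. The adjusted threshold from limma was passed by 0 (smallest 0.273). Stat2 and Irf9, which encode subunits of ISGF3, had differences of 0.57 (SE 0.19) and 0.74 (SE 0.23) with groups that did not overlap. Tyk2, a receptor-bound kinase, had a difference of 0.38 (SE 0.13), also without overlap. Ifnar2, a chain of the type I interferon receptor, was at 12.50, 12.52 and 12.50 in KO and at 13.22, 13.65 and 12.93 in control, a difference of -0.76 (SE 0.19). Ifnar1, the other chain, differed by -0.02 (SE 0.10), or -0.06 without control 3. The chains of the interferon gamma receptor, Ifngr1 and Ifngr2, differed by -0.56 and -0.96 (-1.45 for Ifngr2 without control 3) with overlapping groups.

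Of 10 measured genes of the interferon regulatory factor list, 3 had positive differences (median -0.16, or -0.20 without control 3) and 0 passed the adjusted threshold from limma (smallest 0.352). Irf7, which amplifies interferon production, was at 8.84, 8.91 and 8.95 in KO and at 7.25, 7.17 and 8.73 in control, a difference of 1.18 (SE 0.40). Irf8 and Irf4, factors of the lymphoid and dendritic cell lineages, were on the other side, at -1.77 (SE 0.62) and -1.52 (SE 0.48), and so was Irf5, at -0.44 (SE 0.17). Irf3, which acts downstream of STING, was at -0.14 (SE 0.10). For all 5 of these the groups did not overlap. Every KO array was above every control for 1 of the 10 genes (6.15% of all probe sets) and below for 4 (9.15%). At an unadjusted p under 0.05 from limma 1 was higher and 3 lower, beside 3355 and 3827 of all 65956 probe sets.

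The genes with which AIM2 and its relatives work were compared next. Of the 18 inflammasome genes 11 had positive differences (median 0.10, or 0.23 without control 3). At an unadjusted p under 0.05 from limma 5 were higher and 1 lower, beside 3355 and 3827 of all 65956 probe sets. The adjusted threshold from limma was passed by 0 (smallest 0.280). Pycard, the adaptor of AIM2, was at 9.94, 10.08 and 9.85 in KO and at 9.35, 10.01 and 10.49 in control, with a difference of 0.01 that became 0.28 without control 3. The sensor genes Nlrp1a and Nlrp1b had differences of 1.05 (SE 0.33) and 0.59 (SE 0.15), with groups that did not overlap. Casp1, the protease the inflammasome activates, was at 13.28, 12.99 and 12.75 in KO and at 11.85, 12.08 and 12.91 in control, where control 3 was above KO replicate 3. Gsdmd, whose product forms the pores of pyroptosis, and Pstpip1, which binds pyrin, differed by -0.17 (SE 0.11) and -0.31 (SE 0.12).

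Of 15 measured genes of the cGAS-STING list 9 had positive differences (median 0.08, or 0.12 without control 3), with 0 past the adjusted threshold from limma (smallest 0.278). The largest difference of the list was that of Zbp1, a sensor of Z-form nucleic acid that is also an interferon-stimulated gene, at 10.76, 10.85 and 10.77 in KO and 8.33, 8.21 and 10.10 in control. Its difference was 1.91 (SE 0.48). Cxcl10, a chemokine gene, was at 7.30, 7.26 and 7.06 in KO and at 5.53, 5.07 and 7.77 in control, so that control 3 was the highest of the 6 arrays and the difference of 1.08 (SE 0.65) became 1.91 without it. Sting1 and Cgas differed by 0.27 and 0.28 (0.57 for Cgas without control 3) with overlapping groups, and Ifnb1, the gene of interferon beta, by -0.10 (0.00 without control 3), with signals of 5.52 to 6.05 in KO and 5.75 to 6.11 in control. Of 10 measured genes whose products have been described as partners of family proteins, 6 had positive differences (median 0.08, or 0.28 without control 3). Rb1, the retinoblastoma gene, was at 11.92, 11.86 and 11.92 in KO and at 11.26, 11.45 and 11.57 in control, a difference of 0.47 (SE 0.12; adjusted p = 0.279 from limma). Myc had a difference of -0.42 (SE 0.12), and Ubtf and E2f1 of -0.23 (SE 0.13) and -0.19 (SE 0.12), in each case with groups that did not overlap. Every KO array was above every control for 1 of the 10 partner genes (6.15% of all probe sets) and below for 3 (9.15%).

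Markers of other cell types also differed between arrays, and their part in the family's differences was not tested. In bulk RNA, fewer cells of a type and less RNA per cell cannot be told apart. B cell markers (8 of 10 measured) had mean signals of 8.04 to 9.03 in KO and of 7.40 to 11.11 in control, with controls 1 and 2 high and control 3 low, and a median difference of -1.47. This median was -2.76 without control 3, -0.50 without control 1 and -0.68 without control 2. Granulocyte markers (13 of 13) ran from 9.29 to 10.31 in KO and from 7.44 to 9.50 in control, T and NK cell markers (12 of 13) from 7.52 to 8.95 and from 7.16 to 7.70, and megakaryocyte markers (8 of 10) from 8.78 to 9.18 and from 7.39 to 9.35. The median differences of these lists were 0.57, 0.93 and 0.83 (0.76, 0.60 and 1.38 without control 3), with 8 of 13, 11 of 12 and 7 of 8 genes positive, so that they lay in the same direction as the members' median of 0.74. The T and NK cell median was 0.29 without KO replicate 2. Monocyte, macrophage and dendritic cell markers (16 of 18), cells in which several family members are abundant, ran from 8.05 to 8.56 in KO and from 7.83 to 8.78 in control (median difference 0.07, or 0.04 without control 3). Among these Lyz2, the lysozyme gene, had a difference of 2.69 (SE 0.42), Itgam of 1.17 (SE 0.27) and Fcgr1 of 0.75 (SE 0.17). Siglech, a marker of plasmacytoid dendritic cells, had a difference of -1.60 (SE 0.62). Every KO array was above every control for 4 of the 16 (6.15% of all probe sets) and below for 2 (9.15%). Erythroid markers (7 of 10) had a median difference of -0.34 (-0.47 without control 3). LSK markers (11 of 12) ran from 10.13 to 10.32 in KO and from 9.72 to 11.01 in control, with a median difference of 0.02 (0.34 without control 3). Flt3, a marker of lymphoid-primed progenitors, was at 10.98, 10.89 and 11.01 in KO and at 12.80, 11.84 and 11.90 in control. No gene of these marker lists passed an adjusted p under 0.05 from limma with all arrays (smallest 0.171). At an unadjusted p under 0.05 from limma, 3355 of all 65956 probe sets were higher and 3827 lower. Beside these, 4 of 13 granulocyte, 4 of 12 T and NK cell and 2 of 8 megakaryocyte markers were higher and 0 lower. Of 16 monocyte, macrophage and dendritic cell markers 4 were higher and 3 lower, and of 7 erythroid markers 0 and 2. Of 11 LSK markers 1 was higher and 1 lower, and of 8 B cell markers 0 and 0.

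Outside the listed members, the signal of single genes was set against the members' mean profile over the 6 arrays. This profile was the mean of centred signals without scaling, so that probe sets with a wide spread, such as Ifi213 and Ifi209, weighed more. The 10 with the highest Pearson correlation among 30732 genes, from 0.999 to 0.986, were Ankrd50, Gm14459, Cd5, Gm25338, Ccl8, Zfp983, 5830428M24Rik, Brox, Tmem241 and Sox5. Ankrd50, an endosomal adaptor gene at 0.999, was at 7.56, 7.62 and 7.60 in KO and at 7.30, 7.36 and 7.40 in control, a difference of 0.24. Ccl8, a chemokine gene, was at 5.54, 5.88 and 5.77 in KO and at 4.80, 4.90 and 4.99 in control, a difference of 0.83. Over only 6 arrays such likeness is common, and 453 of the 30732 genes (1.47%) had a correlation over 0.9. Where it was computed for the 10 genes, the position of control 3 ran from 15.9% (Ccl8) to 35.6% (5830428M24Rik). Its median over the member probe sets was 58.2%, so that likeness to the mean profile is not likeness to each member.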

How the data were processed

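Total RNA of FACS-sorted LSK cells (40 ng per array) was amplified, labelled with biotin and hybridised to MTA-1.0 arrays, 3 KO and 3 control. Signals were summarised by the authors per gene by SST-RMA, which corrects for background and GC content and normalizes arrays to each other. The deposited log2 values ranged from 2.37 to 19.89 and were used as they stand. Because the normalization forces the arrays to a common distribution, a shift shared by most genes cannot be seen. Arrays have no read depth, and 3 per group limit the precision.

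Probe sets were named through the platform annotation, with 1212 names updated through RefSeq (GRCm38.p6): 31292 named 1 gene, 1522 several and 33142 none. Where a gene had several probe sets, the one with the highest mean stood for it. KO and control were compared with limma 3.58.1 (R 4.3.3), with p-values adjusted over all probe sets by the Benjamini-Hochberg method, after the script had been tested on simulated data. Standard errors are limma's. The position of control 3 was computed only where KO and the mean of controls 1 and 2 were at least 0.5 apart, a limit chosen after the data were seen. Promoter alignments were local (Biopython 1.88). Figures were drawn with matplotlib 3.10.9.

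The members and all gene lists were chosen with earlier results of these data known. The text names all members, all other annotated family genes, the 10 genes most like the members' mean profile and the 3 nearest neighbours on each side. It also names any gene of lists of 13 or fewer and up to 4 non-overlapping genes of longer lists by size of difference. Pycard, Casp1, Sting1, Cgas, Ifnb1 and Cxcl10 were added for their roles after their values were seen. Alternatives were other normalizations, filters, priors, array weights, the t-test that the study's methods name for other data, blocks and leaving out each array.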

Additional observations from a re-analysis of the deposited data

How the results depend on the processing

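The members' median difference of 0.74 stayed between 0.62 and 0.83 when each array was left out in turn, and between 0.64 and 0.90 under quantile normalization, median centring, array weights, the blocks, and, chosen after seeing the data, without Ifi209 or with only the 6 probe sets that name 1 gene. All 13 family probe sets kept the sign of their difference in each leave-one-out fit, and all 143 alternative values lay within 1 SD of the replicates. With 3 arrays per group, leaving out 1 array cannot move a difference by 1 SD, and the replicate block cannot move it at all. This limit could therefore not be failed in those fits, and it was wide for Ifi209 and Ifi214, whose controls disagreed. For Ifi209 leaving out an array moved the difference between 0.11 and 1.59 and for Ifi214 between 0.36 and 1.58, in both cases lowest without control 3. They were 0.03 and 0.24 with a block for the number in the sample descriptions, whose meaning is not given. KO replicate 2 and control 3 each had a number of their own. This block therefore compared only KO replicates 1 and 3 with controls 1 and 2, and is not separate from leaving out control 3.

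The count of probe sets past an adjusted p under 0.05 was 0, but 2 under quantile normalization, 1 under median centring, 3 with array weights, and 0 to 2332 when 1 array was left out, the highest without control 3. Over 2-fold with p under 0.01, 392 probe sets were higher and 259 lower. These counts were 158 and 151 when only probe sets with 1 gene were tested and 683 and 486 with array weights. They were 100 and 77 with the t-test that the study's methods name for other data. With the block for the description number, which also sets control 3 and KO replicate 2 aside, they were 944 and 750. They ran from 189 to 1226 and from 165 to 859 when 1 array was left out. With the replicate block the counts were 335 and 218, the members' median was 0.74 and no count moved by over 1.5 times. Same-numbered arrays deviated together by correlations of 0.16, -0.17 and -0.17. With 3 arrays per group these values cannot show whether replicate numbers pair the arrays. The 2 pairs that share a description number deviated together by 0.16 and 0.16. The 4 interferon-stimulated genes past this criterion became 32 without control 3, 31 with the block for the description number, 20 with array weights, 0 with that t-test and 0 to 1 without any other array. Leaving out 1 array turned the sign of 5 list medians near 0, which ran from -0.01 to 0.23 for the inflammasome, -0.04 to 0.12 for cGAS-STING, -0.04 to 0.28 for partners of family proteins, -0.18 to 0.34 for LSK markers and -0.12 to 0.35 for monocyte markers. The cause of these changes was not tested. Groups of 3 arrays were too small for a test of outliers.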
